A study of Mus musculus with 6 samples.

Results

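The multipotent progenitor MPP4 was set against the common myeloid progenitor (CMP) in wild-type mouse bone marrow. MPP4 is the progenitor usually described as lymphoid-primed, and CMP is the Sca-1-negative progenitor that can form granulocytes, monocytes, red cells and platelets. The comparison held 3 libraries of wild-type MPP4 and 3 libraries of wild-type CMP, 6 of the 36 libraries of the series, chosen by population and genotype and by no measured value. The other 30 libraries were HSC, MPP2, MPP3 and MEP of wild-type mice and the same 6 populations of mice labelled Mof -/+, here called heterozygous. Mof, also called Kat8, encodes a histone H4 lysine acetyltransferase.

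Each library was made with CEL-Seq2, which counts the 3′ ends of polyadenylated RNA, from 15 sorted cells. The MPP4 gate was Lin-negative, Sca-1-positive and cKit-positive (LSK), with CD34, Flt3 and CD48 and without CD150. The CMP gate was Lin-negative, Sca-1-negative and cKit-positive, with CD34, low CD16/32 and no IL7r. The heterozygous MPP4 and CMP cells, with 3 libraries each, were sorted with the same gates. Each genotype's MPP libraries shared 1 sequencing pool, and its CMP and MEP libraries shared another, so population and pool cannot be told apart within a genotype. Nothing in the labels says that libraries of a group came from separate mice, and the mice's strain, age and sex are not stated in the labels. The p-values therefore measure the spread between libraries, which may be technical. In bulk libraries, fewer cells of a type and less RNA per cell cannot be told apart.

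Levels are given as CPM, a gene's share of all gene counts of its library scaled to 1e6, and differences as MPP4 minus CMP on the log2(value + 1) scale, where a value is a count scaled to the common total of 58676.5. Fold changes on this scale are smaller than the ratio of the counts for genes with few counts. A gene was called when limma's Benjamini-Hochberg adjusted p was under 0.05 over 7517 genes. The totals were 38295, 38142 and 18040 counts in the MPP4 libraries, against 55705, 75742 and 76418 in the CMP libraries, so that 1 count is worth 26.1, 26.2 and 55.4 CPM in MPP4 and 17.95, 13.2 and 13.1 CPM in CMP.

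The MPP4 library labelled replicate 3 stood apart from the other MPP4 libraries. It held 0 counts of Flt3, Kit and Cd34, which allows up to 166 CPM at its depth. It also held 145177 CPM of the adult beta-globin transcript listed as Beta-s, and 33869 CPM summed over the mature neutrophil list (14 genes, 12 of them with a line in the tables). The other MPP4 libraries held 339 and 25353 CPM of Beta-s and 209 and 708 CPM of the neutrophil genes. Among the CMP libraries, replicate 2 held 7103 CPM of the neutrophil genes, against 1723 and 746 CPM in replicates 1 and 3, and it alone held the basophil proteases Mcpt8 (343 CPM) and Prss34 (264 CPM). Results are therefore also given without MPP4 replicate 3, and where it matters without both libraries.

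Early B cell development passes through the pre-B cell receptor, in which the surrogate light chain encoded by Vpreb1 and Igll1 pairs with the immunoglobulin heavy chain. The receptor signals through Cd79a, Cd79b and the adaptor Blnk. The Rag1 and Rag2 recombinase rearranges the receptor genes, and the polymerase encoded by Dntt adds bases at the joints. Ebf1, Foxo1 and the E proteins switch the programme on. Granulocyte development is marked by the enzymes of primary granules, myeloperoxidase (Mpo) and the serine proteases Elane, Prtn3 and Ctsg. Gata2 is a transcription factor of stem cells, megakaryocytes, erythroid precursors and mast cells.

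Promoter windows are printed for 3 genes that were higher in MPP4 (Vpreb1, Igll1 and Cd79a) and for 3 granule genes that were lower (Mpo, Elane and Ctsg), so that the DNA beside the start sites of the 2 programmes can be read together. Each runs 5′ to 3′ on the gene's strand from 250 bases before to 50 bases after the start of the RefSeq gene (build GRCm38.p6). Capitals mark every CANNTG (the E-box, bound by E proteins) and every GAGGAA on either strand (a core that the ETS factor PU.1 can bind), and no 2 of them overlap.
Vpreb1, chr16:16869206-16869505, minus strand: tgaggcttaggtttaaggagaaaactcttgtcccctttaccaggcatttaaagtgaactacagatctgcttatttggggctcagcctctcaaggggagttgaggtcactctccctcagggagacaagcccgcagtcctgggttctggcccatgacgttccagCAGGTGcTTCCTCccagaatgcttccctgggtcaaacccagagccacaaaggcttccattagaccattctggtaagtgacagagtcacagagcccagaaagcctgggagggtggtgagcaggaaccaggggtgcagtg
Igll1, chr16:16863936-16864235, minus strand: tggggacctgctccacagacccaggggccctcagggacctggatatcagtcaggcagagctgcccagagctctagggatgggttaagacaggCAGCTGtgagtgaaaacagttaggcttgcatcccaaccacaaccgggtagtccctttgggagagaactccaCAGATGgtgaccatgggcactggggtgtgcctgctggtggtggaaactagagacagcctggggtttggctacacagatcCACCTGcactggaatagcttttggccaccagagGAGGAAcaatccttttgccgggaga
Cd79a, chr7:24897247-24897546, plus strand: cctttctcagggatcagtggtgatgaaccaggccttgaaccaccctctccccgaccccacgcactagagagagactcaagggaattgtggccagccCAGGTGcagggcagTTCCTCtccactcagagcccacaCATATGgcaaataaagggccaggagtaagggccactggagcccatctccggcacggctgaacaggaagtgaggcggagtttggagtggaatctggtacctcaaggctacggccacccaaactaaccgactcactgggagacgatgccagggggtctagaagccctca
Mpo, chr11:87793534-87793833, plus strand: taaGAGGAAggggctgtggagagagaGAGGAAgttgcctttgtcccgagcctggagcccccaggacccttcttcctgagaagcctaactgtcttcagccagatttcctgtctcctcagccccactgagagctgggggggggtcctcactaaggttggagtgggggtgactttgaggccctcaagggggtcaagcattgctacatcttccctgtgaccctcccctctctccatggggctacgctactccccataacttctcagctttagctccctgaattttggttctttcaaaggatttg
Elane, chr10:79886062-79886361, plus strand: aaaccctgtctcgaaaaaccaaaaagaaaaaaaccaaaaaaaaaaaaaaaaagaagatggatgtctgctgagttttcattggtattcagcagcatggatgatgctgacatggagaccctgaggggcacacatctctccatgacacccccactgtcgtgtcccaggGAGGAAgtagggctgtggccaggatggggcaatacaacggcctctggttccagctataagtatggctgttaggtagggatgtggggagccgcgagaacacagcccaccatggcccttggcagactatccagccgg
Ctsg, chr14:56102525-56102824, minus strand: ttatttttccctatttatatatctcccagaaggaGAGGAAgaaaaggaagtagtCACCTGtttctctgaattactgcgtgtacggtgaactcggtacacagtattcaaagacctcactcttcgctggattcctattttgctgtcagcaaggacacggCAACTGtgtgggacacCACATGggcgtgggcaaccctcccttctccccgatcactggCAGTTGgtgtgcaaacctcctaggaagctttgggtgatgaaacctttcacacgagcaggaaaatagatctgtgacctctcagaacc
All 6 windows held GAGGAA, which stood in 28.3% of the 32851 windows of this length. The windows of Vpreb1, Igll1, Cd79a and Ctsg held an E-box, as did 72.3% of all windows, and the windows of Mpo and Elane held none. A match is a run of letters and not a site of binding.

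Wild-type MPP4 had 73 genes higher than CMP (0.971% of those tested) and 103 genes lower (1.37%). The median log2 difference over all tested genes was −0.22, so smaller negative differences are close to the background shift. The edgeR quasi-likelihood test on the recovered counts, whose filter kept 1461 genes, called 67 higher (4.59%) and 87 lower (5.95%) with a median of 0.01. Of limma's calls, 39 of the 45 higher and 59 of the 66 lower genes that edgeR also tested were called by both. Under TMM scaling limma called 60 higher and 152 lower, so that 28.3% of the calls were higher, against 41.5% with library totals. Without MPP4 replicate 3, limma called 118 of 7492 genes higher (1.58%) and 129 lower (1.72%). That fit kept 62 of the 73 higher and 85 of the 103 lower genes. Without CMP replicate 2 as well, 61 genes were higher and 56 lower, and 37 and 45 of the first calls were kept. The libraries of MPP4 and CMP did not overlap in 479 of the 7517 genes with MPP4 higher (6.37%) and in 859 with MPP4 lower (11.4%), and all 73 and 103 called genes were among them.

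**Figure D1:**
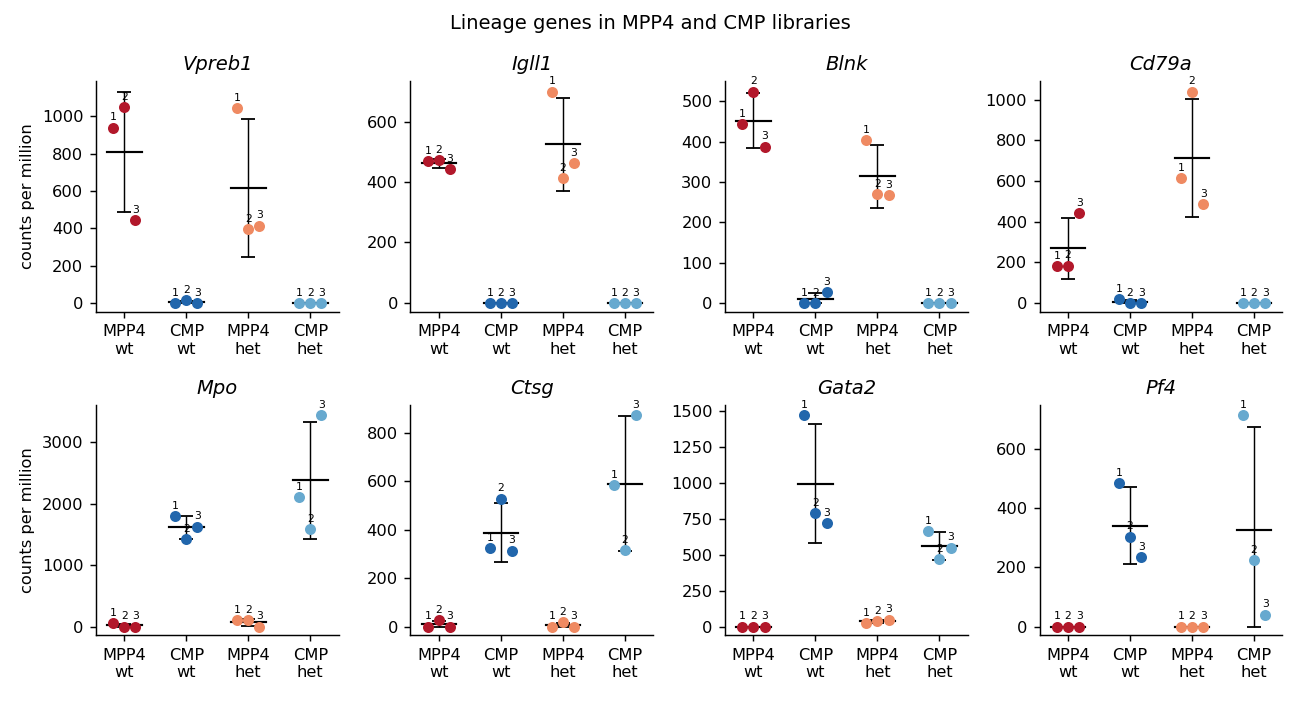
CPM of 8 lineage genes in each library of MPP4 and CMP, wild type (wt) and Mof heterozygous (het). Numbered points are libraries, horizontal lines are means and bars are ± 1 SD over 3 libraries, cut at 0. All wild-type MPP4 libraries lie above all CMP libraries for Vpreb1, Igll1, Blnk and Cd79a, and below them for Mpo, Ctsg, Gata2 and Pf4.

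The genes of the pre-B receptor and of B lineage commitment stood far above CMP. Of the 15 genes of this list, 13 were tested, 10 were higher, none was lower and 3 were not called, with a median difference of 3.61. All 13 differences were positive. Igll1, Ebf1, Rag1, Rag2, Pou2af1 and Il7r were at 0 in every CMP library, so their differences could not have been negative. Vpreb1 had 940, 1049 and 443 CPM in MPP4, against 0, 13.2 and 0 CPM in CMP. Its mean was 811 ± 323 CPM in MPP4 and 4.40 ± 7.62 CPM in CMP (SD, n = 3 each), and its log2 difference was 5.24 ± 0.52 (SE, adjusted p = 1.71e-06). The pooled counts gave 185-fold, with an exact 95% interval of 32.3 to 7390 that covers counting error only, because CMP held 1 count. Igll1, which lies next to Vpreb1 on chromosome 16 and encodes the other surrogate light chain subunit, had 470, 472 and 443 CPM in MPP4 and 0 counts in every CMP library. It was at least 32.3-fold higher over a floor of 3 counts over the CMP group, with a log2 difference of 4.81 (adjusted p = 1.71e-06).

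Vpreb3, a partner of the immunoglobulin heavy chain in early B cells, had 888, 1206 and 942 CPM in MPP4, against 0, 0 and 13.1 CPM in CMP. Its log2 difference of 5.63 ± 0.45 was the largest positive difference of any called gene other than Beta-s. Blnk had 444, 524 and 388 CPM in MPP4, against 0, 0 and 26.2 CPM in CMP, a log2 difference of 4.33 (adjusted p = 2.82e-05). All 4 genes, whose groups did not overlap as for every called gene, were called under every alternative setting tried. Vpreb1 overlaps Top3b, and Vpreb3 a pseudogene, on the opposite strand (GENCODE vM21). Use of strand in the authors' counting is unstated, so reads of such partners cannot be told apart. Vpreb2, nearly identical to Vpreb1, was listed at 0 in these 6 libraries, and reads of the pair may have been split or dropped.

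The signalling chains and factors of the list followed. Cd79a had 183, 184 and 443 CPM in MPP4, against 17.95, 0 and 0 CPM in CMP (log2 difference 3.61, adjusted p = 0.000413). Cd79b, its partner chain, had 183, 184 and 721 CPM in MPP4, against 17.95, 26.4 and 13.1 CPM in CMP. The 3 MPP4 libraries thus lay above the CMP libraries for both chains. Ebf1 (131, 131 and 166 CPM), Rag1 (131, 131 and 222 CPM) and the B cell coactivator Pou2af1 (235, 262 and 111 CPM) were at 0 in all CMP libraries and were called, with differences of 3.22, 3.35 and 3.61. Rag2 (104, 26.2 and 55.4 CPM in MPP4, 0 in CMP) was not called. Pax5, the factor that fixes B cell identity, was at 0 in all 6 libraries.

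Dntt and Il7r split the MPP4 libraries. Dntt, the terminal transferase, had 2846, 1127 and 0 CPM in MPP4, against 0, 26.4 and 0 CPM in CMP. The interleukin 7 receptor gene Il7r had 392, 236 and 0 CPM in MPP4 and 0 in CMP, whose gate removed IL7r-positive cells. Both genes were high in MPP4 replicates 1 and 2 and at 0 in replicate 3, and neither was called by limma (adjusted p = 0.0778 and 0.089), while edgeR called both. Without MPP4 replicate 3 limma called both (adjusted p = 1.43e-06 for Dntt and 0.000166 for Il7r), and 12 of the 13 tested genes of the list were higher.

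Genes of mature B cells moved with this list. Of 14 marker genes 9 had a line in the tables, and all 9 were tested, 4 were higher (Ms4a1, H2-Ab1 and Ly6d among them) and none was lower, with a median of 2.94. Leaving out MPP4 replicate 1 gave 8 of 9 higher (median 3.58), and leaving out MPP4 replicate 3 and CMP replicate 2 together gave 2 (median 1.62). Their summed level was 522, 3094 and 8149 CPM in MPP4, with 5, 9 and 9 members detected, against 125.7, 132 and 183 CPM in CMP, with 5, 5 and 6 detected. The class II genes carried most of it. H2-Aa had 0, 734 and 2439 CPM in MPP4, against 35.9, 13.2 and 26.2 CPM in CMP, and its invariant chain Cd74 had 26.1, 315 and 2162 CPM in MPP4, against 17.95, 26.4 and 26.2 CPM in CMP. H2-Aa overlapped CMP through MPP4 replicate 1, Cd74 of replicate 1 was within 1 count of CMP, and limma called neither, while edgeR called both. Ms4a1, which encodes CD20, had 26.1, 157 and 222 CPM in MPP4 and 0 in CMP, and lost its call without MPP4 replicate 3 (adjusted p = 0.0579). MPP4 replicate 1, which had the lowest mature B cell sum, had the highest sum over the B lineage list, with 7077, 6135 and 4546 CPM in MPP4, against 53.9, 79.2 and 65.4 CPM in CMP. The part of mature B cells in the higher levels was not tested.

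Among lymphoid priming genes, 5 of 24 tested were higher (Lef1, Foxo1, Spib, Ets1 and Cd52), 1 was lower (Runx3) and 18 were not called, with a median of 0.94. Lef1, a transcription factor that acts downstream of Wnt signals in early lymphocytes, had 339, 184 and 222 CPM in MPP4 and 0 counts in CMP, at least 17.6-fold higher over the 3-count floor (log2 difference 3.92, adjusted p = 0.000168). Foxo1, which acts with Ebf1 in early B cells, had 183, 157 and 166 CPM in MPP4, against 53.9, 13.2 and 0 CPM in CMP. Cd52, a small surface glycoprotein of lymphocytes and other leukocytes, had 339, 813 and 1220 CPM in MPP4, against 53.9, 145 and 26.2 CPM in CMP (log2 difference 3.17). Spib and Ets1 rested most on MPP4 replicate 3, with 443 and 776 CPM there, and were no longer called without it (adjusted p = 0.0526 and 0.0596). Runx3, a lymphoid and myeloid transcription factor, had 131, 26.2 and 0 CPM in MPP4, against 395, 172 and 262 CPM in CMP, and was not called in 18 of 25 alternatives (adjusted p 0.00319 to 0.268 over them). Leaving out CMP replicate 1, 2 or 3 gave 3, 3 and 2 higher genes of the list, and the 6 wild-type libraries alone gave 2. Lef1 and Cd52 were called whichever of the 6 wild-type libraries was left out. The priming factors Ikzf1, Notch1, Satb1, Tcf3, Mef2c and Bcl11a were not called. Sox4 had 1227, 262 and 0 CPM in MPP4, against 1095, 1017 and 994.5 CPM in CMP.

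Other genes among the largest positive differences included Prkcb, the protein kinase C of B cell receptor signalling, with 287, 341 and 831 CPM in MPP4, against 35.9, 13.2 and 13.1 CPM in CMP. E2f2, a cell cycle factor, had 261, 262 and 831 CPM in MPP4, against 35.9, 13.2 and 13.1 CPM in CMP. The lysosomal protease Ctss, the lectin Lgals3 and the transcription factor Klf4 were highest in MPP4 replicates 2 and 3. Lgals3 had 52.2, 472 and 499 CPM in MPP4, against 0, 13.2 and 0 CPM in CMP, and lost its call without both MPP4 replicate 3 and CMP replicate 2 (adjusted p = 0.0796). Klf4 had 52.2, 498 and 443 CPM in MPP4, against 0, 26.4 and 0 CPM in CMP. Chchd10, a mitochondrial protein gene on chromosome 10, had 287, 341 and 166 CPM in MPP4, against 0, 39.6 and 0 CPM in CMP. Bach2 and Id3, regulators of lymphocyte development that the lists did not hold, were also called (log2 differences 2.65 and 3.35). They were picked after their values were seen. Beta-s had the largest difference of all (7.66 ± 1.497, adjusted p = 0.00534), with 339, 25353 and 145177 CPM in MPP4, against 197, 26.4 and 0 CPM in CMP. The other globin transcripts summed to 0, 367 and 1386 CPM in MPP4, against 71.8, 0 and 0 CPM in CMP. Beta-s was not particular to MPP4. Its pooled wild-type level was 38094 CPM in MPP4, 24584 CPM in MPP2, 2362 CPM in MPP3 and 23019 CPM in HSC. It was 62.5 CPM in CMP and 15.5 CPM in MEP.

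**Figure D2:**
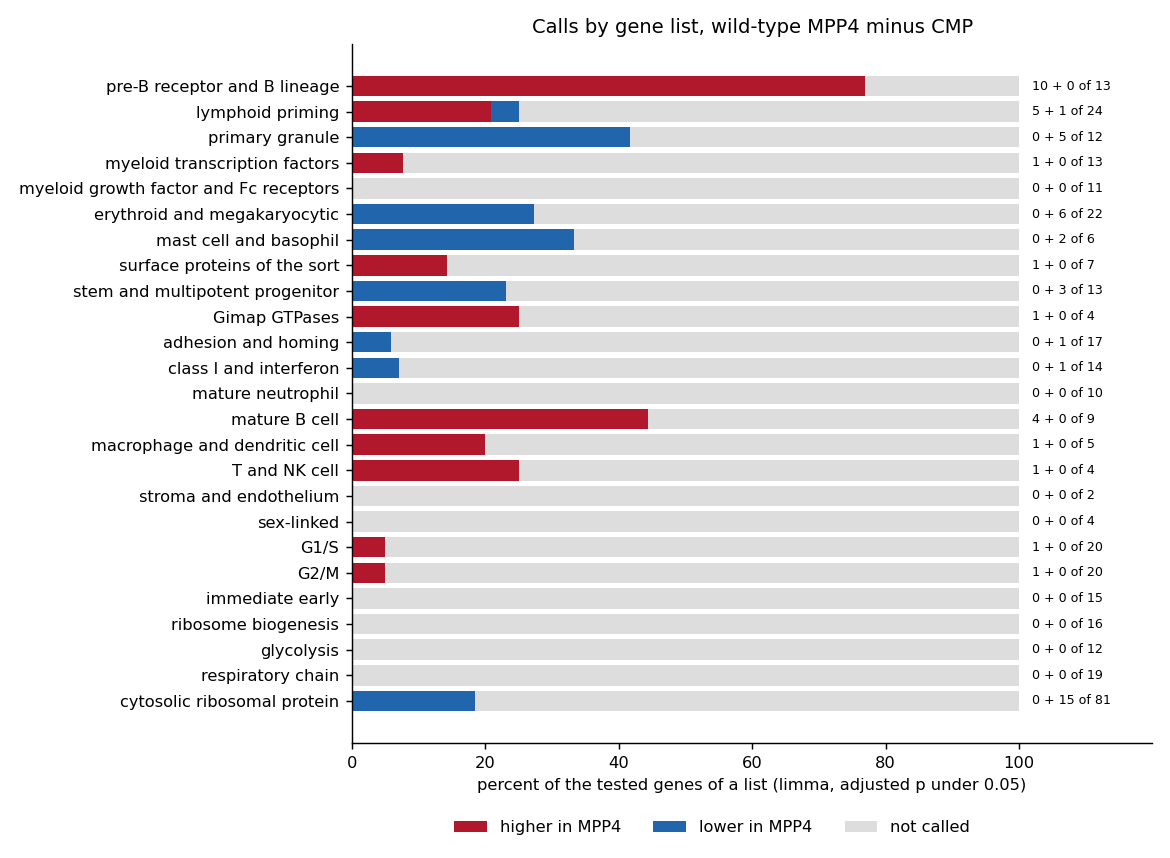
Share of the tested genes of each list that limma called higher (red) or lower (blue) in wild-type MPP4 than in CMP, with the remainder in grey, and the counts (higher + lower of tested) at the right. The pre-B receptor and B lineage list has 10 of 13 genes higher, and the primary granule list has 5 of 12 lower, against 0.971% and 1.37% over all genes.

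Primary granule genes were lower in MPP4. Of 13 genes, 12 were tested, 5 were lower (Mpo, Elane, Prtn3, Ctsg and Calr), none was higher and 7 were not called, with a median of −1.89. Mpo had 52.2, 0 and 0 CPM in MPP4, against 1795, 1426 and 1623 CPM in CMP. It averaged 17.4 ± 30.2 CPM in MPP4 and 1615 ± 185 CPM in CMP (SD, n = 3 each), a log2 difference of −5.90 ± 0.62 (adjusted p = 3.46e-06). The pooled ratio was 75.4-fold lower in MPP4 (exact 95% interval 20.7 to 626, with 2 counts in MPP4). Mpo lies at chr11:87793581-87804413. Ctsg, cathepsin G, had 0, 26.2 and 0 CPM in MPP4, against 323, 528 and 314 CPM in CMP (log2 difference −4.08, adjusted p = 0.000125). Prtn3, proteinase 3, had 0, 105 and 0 CPM in MPP4, against 341, 502 and 798 CPM in CMP (log2 difference −4.02). Elane, neutrophil elastase, had 0, 26.2 and 0 CPM in MPP4, against 413, 277 and 78.5 CPM in CMP, with an adjusted p of 0.0107 that became 0.068 without MPP4 replicate 3 and CMP replicate 2.

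Elane and Prtn3 neighbour each other on chromosome 10. CMP replicate 2, with the most neutrophil transcripts, was the highest CMP library for Ctsg and not for Mpo, Elane or Prtn3. The part of neutrophils in the granule gene levels was not tested. Leaving out 1 library gave 3 to 7 lower genes of the list, with 3 without CMP replicate 1 or 2. Without CMP replicate 1, Elane had an adjusted p of 0.121. Calr, the chaperone calreticulin, had 418, 787 and 277 CPM in MPP4, against 1526, 1162 and 1165 CPM in CMP, and its call was lost without MPP4 replicate 3 (adjusted p = 0.0574). Srgn, the granule proteoglycan serglycin, had 862, 865 and 665 CPM in MPP4, against 1490, 1835 and 1662 CPM in CMP, and was called by edgeR and not by limma. Ms4a3 (0 in MPP4, against 162, 92.4 and 26.2 CPM in CMP) and Nkg7 were not called. Prss57 and Ctsc had positive differences.

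The myeloid regulators and receptors did not follow the granule enzymes as a group. Of 13 tested myeloid transcription factor genes, only Klf4 was called, and it was higher in MPP4. It lost the call without both MPP4 replicate 3 and CMP replicate 2 (adjusted p = 0.0676) and in 9 of 25 alternatives in all. Cebpa, the factor that drives granulocyte fate, had 0, 78.7 and 0 CPM in MPP4, against 108, 79.2 and 131 CPM in CMP, with a log2 difference of −1.999 and an adjusted p of 0.114. Irf8 had 183, 288 and 1053 CPM in MPP4, against 89.8, 739 and 196 CPM in CMP, with the high values in the libraries that stood apart. None of 11 tested growth factor and Fc receptor genes was called by limma (1 higher and 3 lower at an unadjusted p under 0.05). DESeq2 called none, and edgeR, whose filter kept only 2 of them, called none. Csf3r had 52.2, 0 and 55.4 CPM in MPP4, against 144, 92.4 and 78.5 CPM in CMP. Il3ra and Il1rl1, receptors of mast cells and basophils among others, were at 0 in MPP4 and at 13.1 to 89.8 CPM in CMP.

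Erythroid and megakaryocytic genes were also lower in part. Of 22 tested, 6 were lower (Gata2, Car1, Itga2b, Pf4, Apoe and F2r), none was higher and 16 were not called, with a median of −1.83. Gata2 was at 0 in all MPP4 libraries, against 1472, 792 and 720 CPM in CMP. That is at least 29.8-fold lower over a floor of 3 counts over the MPP4 group, with a log2 difference of −5.82 ± 0.45 (adjusted p = 4.23e-08). Car1, a carbonic anhydrase of erythroid progenitors, was at 0 in MPP4, against 431, 330 and 576 CPM in CMP. Pf4, platelet factor 4, and Itga2b, the integrin chain CD41, were also at 0 in MPP4 and were called. Pf4 had 485, 304 and 236 CPM and Itga2b 323, 211 and 196 CPM in CMP. The apolipoprotein gene Apoe had 0, 0 and 111 CPM in MPP4, against 862, 713 and 615 CPM in CMP. The thrombin receptor gene F2r had 26.1, 26.2 and 0 CPM in MPP4, against 377, 172 and 262 CPM in CMP.

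All 6 genes were called without MPP4 replicate 3 and CMP replicate 2, and F2r lost its call without CMP replicate 1 (adjusted p = 0.0818). Gata1 and Klf1, the erythroid factors, had 0 to 52.4 CPM in MPP4, against 66.0 to 158 CPM in CMP, and were not called (adjusted p = 0.0962 and 0.132). Car2 had a positive difference, with 261, 1075 and 887 CPM in MPP4, against 359, 172 and 301 CPM in CMP, and was not called. Of 6 tested mast cell and basophil genes, Ms4a2 (a chain of the IgE receptor, 0 in MPP4, against 53.9, 106 and 65.4 CPM in CMP) and the cofactor gene Lmo4 were lower. None of this list was called without MPP4 replicate 2, CMP replicate 1 or CMP replicate 2, or without both MPP4 replicate 3 and CMP replicate 2. Its summed level was 496, 105 and 277 CPM in MPP4, against 1023, 2891 and 759 CPM in CMP. Cpa3, the mast cell carboxypeptidase, had 183, 0 and 0 CPM in MPP4, against 180, 687 and 78.5 CPM in CMP.

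Other genes among the largest negative differences follow. Cd63, a tetraspanin of granules and platelets, was at 0 in MPP4, against 359, 475 and 196 CPM in CMP. Rab44, a Rab GTPase gene, was at 0 in MPP4, against 305, 251 and 209 CPM in CMP. Plxnc1, a semaphorin receptor, was at 0 in MPP4, against 233, 185 and 118 CPM in CMP. Of the stem and multipotent progenitor list, 13 genes were tested and 3 were lower. Ifitm1 was at 0 in MPP4, against 251, 264 and 327 CPM in CMP. Angpt1, a ligand of the Tie2 receptor, had 78.3, 26.2 and 0 CPM in MPP4, against 251, 238 and 458 CPM in CMP. In all, 33 of the 103 lower genes were at 0 in every MPP4 library, and 20 of the 73 higher genes were at 0 in every CMP library. The MPP4 libraries held 18040 to 38295 counts, against 55705 to 76418 in CMP, so zeros come more easily in MPP4. The share of such genes among all tested genes was not counted, so these counts are not a result about the called genes.

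The transcripts of the sorted surface proteins followed the gates in part. Ly6a, which encodes Sca-1, had 78.3, 184 and 222 CPM in MPP4 and 0 in CMP (log2 difference 3.28 ± 0.60, adjusted p = 0.00268). It was at least 10.3-fold higher over the 3-count floor, in the direction of the gate. Of 7 tested surface genes it was the only one that limma called. Flt3, positive in the MPP4 gate, had 548, 105 and 0 CPM in MPP4, against 53.9, 106 and 131 CPM in CMP, so the groups overlapped and the log2 difference was −0.04 (adjusted p = 0.986). Kit had 209, 157 and 0 CPM in MPP4, against 305, 251 and 497 CPM in CMP, and Cd34 had 287, 26.2 and 0 CPM in MPP4, against 215, 291 and 170 CPM in CMP. Flt3, Il7r and Dntt were highest in MPP4 replicate 1, lower in replicate 2 and at 0 in replicate 3. Fcgr3, one of the CD16/32 genes, had 0, 0 and 55.4 CPM in MPP4, against 89.8, 106 and 0 CPM in CMP.

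**Figure D3:**
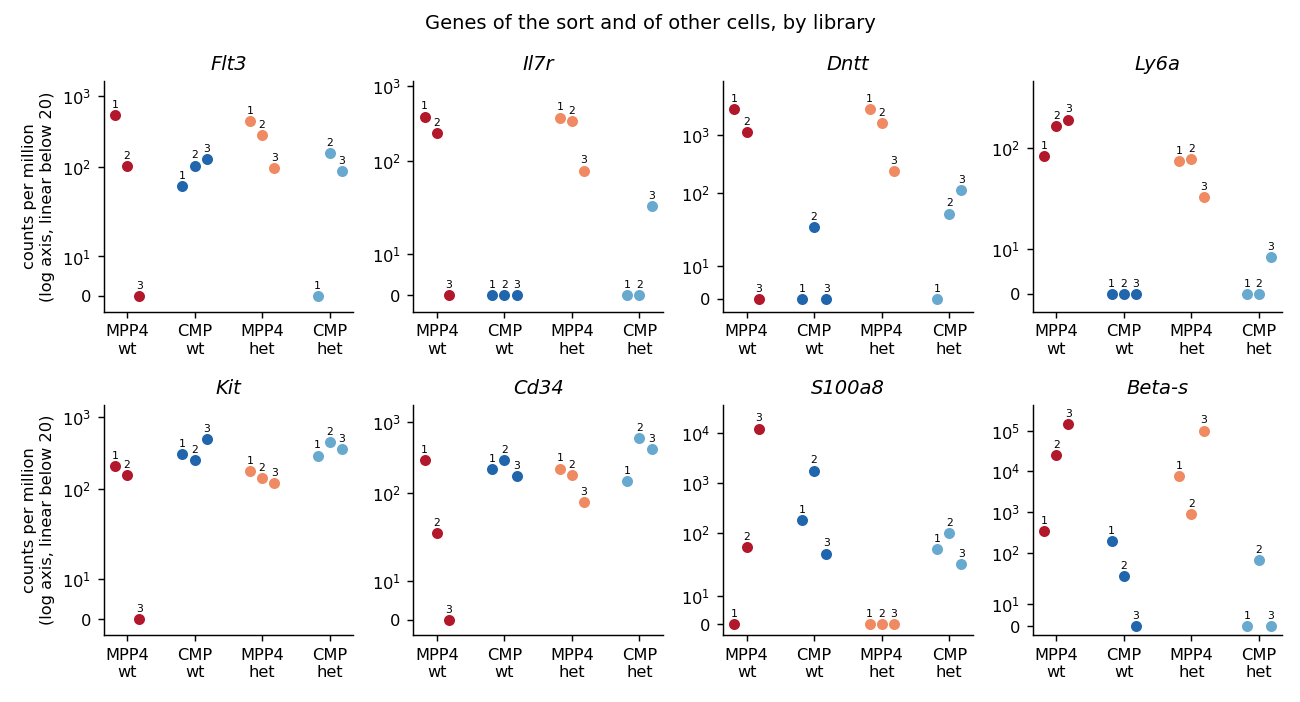
CPM on a log axis (linear below 20) of genes of the sort (Flt3, Il7r, Ly6a, Kit, Cd34), Dntt, the neutrophil gene S100a8 and the beta-globin Beta-s in each MPP4 and CMP library, wild type (wt) and Mof heterozygous (het). Wild-type MPP4 replicate 3 is at 0 for Flt3, Il7r, Dntt, Kit and Cd34 and has 12029 CPM of S100a8.

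Calls of cell cycle genes changed with the libraries used. Of 20 tested G2/M genes, Ube2c was higher (366, 472 and 277 CPM in MPP4, against 35.9, 0 and 78.5 CPM in CMP), none was lower and 19 were not called, with a median of 0.73. Mki67 had 627, 1547 and 111 CPM in MPP4, against 395, 92.4 and 236 CPM in CMP. Top2a had 548, 1809 and 0 CPM in MPP4, against 180, 211 and 314 CPM in CMP. The summed level of the list was 5484, 8547 and 942 CPM in MPP4, against 2046, 1452 and 2303 CPM in CMP. Without MPP4 replicate 3, 9 of the 20 genes were higher, with a median of 1.87. Without CMP replicate 2 as well, 2 were, with a median of 1.63. With all MPP4 libraries kept, Ube2c lost its call without CMP replicate 1 (adjusted p = 0.0606) or CMP replicate 2 (adjusted p = 0.118). Of 20 tested G1/S genes, 1 was higher (E2f2), and Pcna, the replication clamp, had 1488, 1914 and 55.4 CPM in MPP4, against 449, 515 and 340 CPM in CMP. In the heterozygous contrast 1 of the 20 G2/M genes was called higher and 0 lower, with a median of 1.60. The G2/M list summed to 6425, 3482 and 10073 CPM in heterozygous MPP4, against 1996, 1840 and 1883 CPM in heterozygous CMP.

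Ribosomal protein transcripts were lower in wild-type MPP4. Of 81 tested genes 15 were lower, none was higher and 66 were not called, with a median of −0.70 against −0.22 over all genes. The edgeR test called 28 of 75 lower. The count depended on the libraries, with 6, 4 and 5 lower without CMP replicate 1, 2 or 3, 26 without MPP4 replicate 1, 6 with the 6 wild-type libraries only and 0 with all 36. Without MPP4 replicate 3 and CMP replicate 2 together it was 6, and without heterozygous MPP4 replicate 3 and CMP replicate 3 in turn it was 24 and 10. The median lay between −0.87 and −0.53 with any 1 library left out. Rps10, a small subunit gene, had 470, 551 and 388 CPM in MPP4, against 1652, 2192 and 1688 CPM in CMP (log2 difference −1.94 ± 0.30, adjusted p = 0.00063). Rps15 had 810, 419 and 554 CPM in MPP4, against 1939, 2271 and 2120 CPM in CMP. The 15 genes lay between −2.28 and −1.07 on the log2 scale, and their summed level was 8204 to 14806 CPM in MPP4, against 30285 to 33046 CPM in CMP. Many ribosomal protein genes have pseudogene copies that could take reads (Rps15a-ps6 is itself among the 15), so single members are uncertain. None of 16 ribosome biogenesis, 12 glycolysis or 19 respiratory chain genes was called by limma or DESeq2. The edgeR filter kept 10, 8 and 15 genes of these lists, and none was called. By limma at an unadjusted p under 0.05, 4, 2 and 4 genes of these lists were lower and none was higher. Of all 7517 genes, 827 were lower and 439 higher at that threshold.

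The called lower genes also held loci listed as small or predicted RNAs, of which 3 were picked after their values were seen. Mir682 had 0, 0 and 55.4 CPM in MPP4, against 305, 277 and 314 CPM in CMP (log2 difference −3.51). Mir703 had 26.1, 26.2 and 0 CPM in MPP4, against 359, 409 and 471 CPM in CMP (log2 difference −3.75). Gm10653 had 104, 26.2 and 0 CPM in MPP4, against 413, 396 and 432 CPM in CMP. CEL-Seq2 primes on poly(A), so counts at the miRNA loci are not counts of mature miRNA, and Mir682 lies within the pseudogene Gm4149 in GENCODE vM21.

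These transcripts were also low in the other wild-type libraries of the MPP4 sequencing pool. Pooled over libraries, Rps10 had 487 CPM in MPP4, 412 CPM in MPP2 and 712 CPM in MPP3, the 3 populations of that pool, against 1862 CPM in CMP and 1870 CPM in MEP, which shared the other pool. HSC, in neither of these pools, had 1161 CPM. In the heterozygous libraries Rps10 had 1286 CPM in MPP4, 1554 CPM in MPP2, 1489 CPM in MPP3, 1566 CPM in CMP and 1567 CPM in MEP. Mir682 had 10.6 CPM in MPP4, 58.9 CPM in MPP2 and 0 in MPP3, against 298 CPM in CMP and 397 CPM in MEP. In heterozygous MPP4 it had 251 CPM, against 178 CPM in heterozygous CMP. Heterozygous MPP4 replicate 3 was low for Rps10 (854 CPM) and Rps15 (976 CPM), and its sum over the 15 ribosomal protein genes was 13804 CPM, within the wild-type MPP4 range, against 25312 and 23384 CPM in heterozygous MPP4 replicates 1 and 2. The wild-type MPP2 libraries held 10331 to 12339 counts and those of MPP3 held 2764 to 20839, so their levels are coarse.

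Of the B lineage transcripts, Vpreb3 was not confined to MPP4 either. Its pooled level was 1027 CPM in MPP4, 2090 CPM in MPP2, 194 CPM in MPP3 and 570 CPM in HSC. It was 4.81 CPM in CMP and 160 CPM in MEP. The MPP3 level rests on 6 counts, and the HSC libraries had 0, 313 and 1407 CPM. Vpreb1 had 889 CPM in MPP4, against 177, 32.4 and 169 CPM in MPP2, MPP3 and HSC, 4.81 CPM in CMP and 15.5 CPM in MEP. The MPP2, MPP3 and HSC levels of Vpreb1 rest on 6, 1 and 16 counts, and the HSC libraries had 34.4, 28.5 and 458 CPM. Dntt had its highest wild-type pooled level in MPP4, with 58.9, 64.7 and 31.7 CPM in MPP2, MPP3 and HSC (only 2, 2 and 3 counts). Against MEP, whose libraries did not choose the genes, 66 of the 73 higher genes (90.4%) had a higher pooled level in MPP2 and MPP3 together, beside 45.7% of all tested genes. Of the 103 lower genes, 79 (76.7%) had a lower pooled level in MPP2 and MPP3 than in MEP, beside 53.7% of all tested genes. These are counts of pooled levels with no test, and MEP shared the sequencing pool of CMP.

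**Figure D4:**
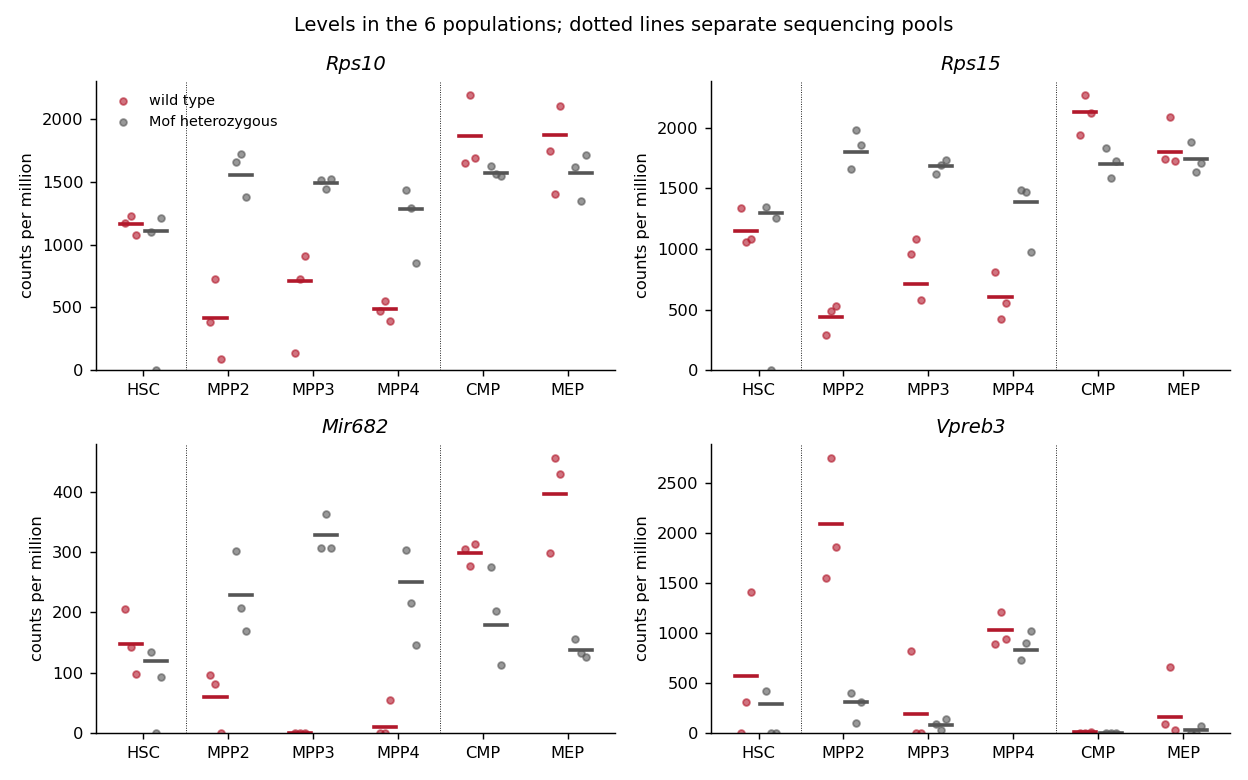
CPM of Rps10, Rps15, Mir682 and Vpreb3 in the 6 populations, wild type (red) and Mof heterozygous (grey). Points are libraries, bars are pooled levels and dotted lines separate the sequencing pools. Rps10, Rps15 and Mir682 have lower pooled levels in wild-type MPP2, MPP3 and MPP4 than in the heterozygous ones, where MPP4 replicate 3 is the lowest of its group, while Vpreb3 is high in MPP4 of both genotypes.

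The same contrast was made between heterozygous libraries. Their levels did not enter the wild-type differences, but all 12 libraries shared the filter and the estimate of spread, and with the 6 wild-type libraries only 35 genes were called higher and 34 lower. Mof transcripts were too few to check the genotype, with 3 and 4 counts over the wild-type MPP4 and CMP libraries and 2 and 3 over the heterozygous ones. Heterozygous MPP4 had 49 genes higher than heterozygous CMP (0.652%) and 29 lower (0.386%). Of the 73 genes higher in wild-type MPP4, 35 (47.9%) were called higher there too, which is 71.4% of the heterozygous higher calls, and 72 of the 73 had a positive difference. Of the 103 lower genes, 20 (19.4%) were called lower there, which is 69% of the heterozygous lower calls, and 85 had a negative difference. The median difference of the wild-type higher genes was 2.30 in heterozygous cells, against 2.89 in wild type, and that of the lower genes was −0.87, against −2.37. Because the genes were chosen by their wild-type differences, larger wild-type medians are built into the choice. The gap between these medians therefore does not measure a difference between genotypes. Over all tested genes the heterozygous median was −0.12, so a negative difference was no less common there than a positive one. The share of each sign over all tested genes was not counted.

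All 10 B lineage genes called in wild type were called higher in heterozygous MPP4. Vpreb1 had 1046, 395 and 415 CPM there, against 0 in every heterozygous CMP library, and Igll1 had 700, 413 and 463 CPM, again against 0. Mpo had 101, 108 and 0 CPM in heterozygous MPP4, against 2109, 1582 and 3434 CPM in heterozygous CMP (log2 difference −5.17). Ctsg had 0, 17.9 and 0 CPM in heterozygous MPP4, against 584, 314 and 873 CPM in heterozygous CMP. Gata2 had 25.3, 35.9 and 48.8 CPM in heterozygous MPP4, against 665, 471 and 549 CPM in heterozygous CMP (log2 difference −3.44). Car1 was not called in heterozygous cells (adjusted p = 0.09). The erythroid and megakaryocytic list summed to 902, 1041 and 9000 CPM in heterozygous MPP4, against 5614, 4118 and 3143 CPM in heterozygous CMP, and replicate 3 of heterozygous MPP4 also held 100215 CPM of Beta-s. The mature neutrophil list summed to 422, 1669 and 1951 CPM in heterozygous MPP4, against 746, 572 and 776 CPM in heterozygous CMP, with S100a8 at 0 in heterozygous MPP4. Of the 9 tested mature B cell genes, 4 were called higher in heterozygous MPP4, with a median of 2.65. That list summed to 868, 3805 and 1317 CPM in heterozygous MPP4, against 114, 44.9 and 56.6 CPM in heterozygous CMP.

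The 15 ribosomal protein genes lay between −0.64 and 0.07 in heterozygous cells, with a smallest adjusted p of 0.567. These 15 were chosen for being lower in wild type. Over all 81 tested ribosomal protein genes the heterozygous median was −0.47, against −0.12 over all genes tested. The same medians in wild type were −0.70 and −0.22. None of the 81 was called in heterozygous cells. The log2 difference of Mir682 was 0.18 there and that of Gm10653 was 0.34. By limma's interaction of population and genotype, 0 genes differed between the genotypes, with a smallest adjusted p of 0.194 and 403 of 7517 genes at an unadjusted p under 0.05. The edgeR interaction called 7 genes of 1461 and DESeq2 called 22.

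**Figure D5:**
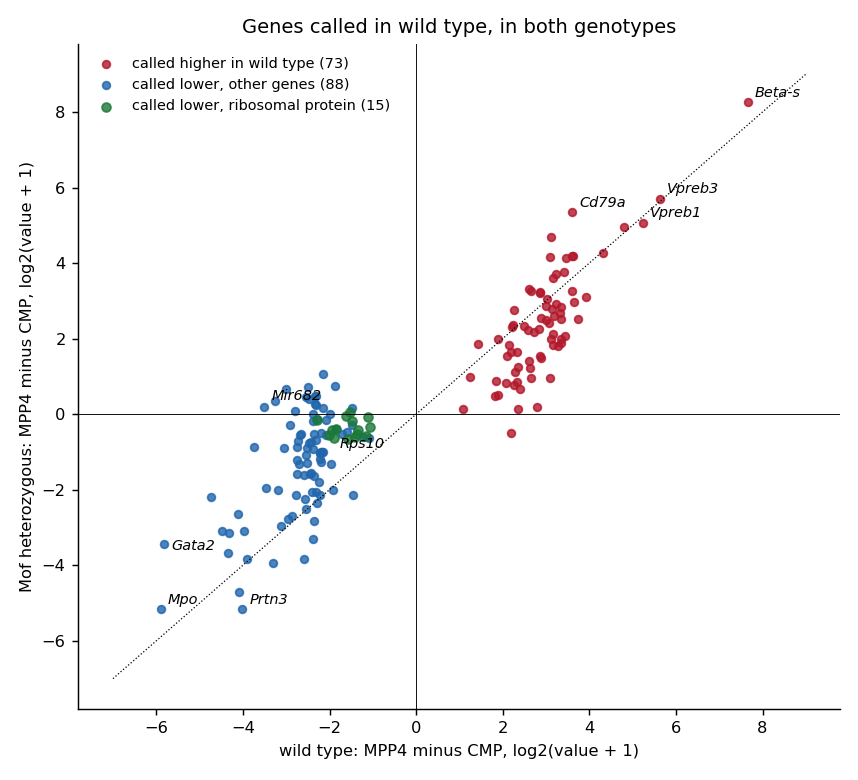
Difference of MPP4 minus CMP on the log2(value + 1) scale in wild type (x axis) and in Mof heterozygous cells (y axis) for the genes limma called in wild type. The dotted line marks equal differences. Of the 73 genes called higher (red), 72 lie above 0 in heterozygous cells. The 15 ribosomal protein genes (green), chosen for being lower in wild type, lie between −0.64 and 0.07 there.

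Several lists showed few calls. Of the 14 tested class I and interferon genes, Ifitm2 was lower (26.1, 52.4 and 0 CPM in MPP4, against 251, 330 and 301 CPM in CMP), and H2-K1 was called higher by edgeR only. Of 17 adhesion and homing genes Cd63 alone was called. Gimap6, of a family of GTPases of lymphocytes, was higher among 4 tested, with 183, 78.7 and 277 CPM in MPP4, against 0, 13.2 and 26.2 CPM in CMP, and lost its call without CMP replicate 1 or 2 (adjusted p = 0.149 and 0.0842). Lck, the kinase of T cell receptor signalling, was higher among 4 tested T and NK cell genes, with 78.3, 52.4 and 277 CPM in MPP4 and 0 in CMP. The summed level of that list was 104, 78.7 and 1718 CPM in MPP4, against 17.95, 0 and 0 CPM in CMP, and the call of Lck was lost without MPP4 replicate 3 (adjusted p = 0.0928). Lgals3 was the 1 call among 5 tested macrophage and dendritic cell genes, whose sum was 313, 1468 and 1386 CPM in MPP4, against 180, 475 and 157 CPM in CMP. None of the 10 mature neutrophil, 15 immediate early, 2 stroma and endothelium and 4 sex-linked genes tested was called by limma. At an unadjusted p under 0.05 there were 0, 2, 0 and 0 higher and 1, 5, 1 and 0 lower. The edgeR filter kept only 4, 7, 0 and 1 genes of these lists. Of them edgeR called 1 neutrophil gene, Cxcr2, lower. DESeq2 called 1 neutrophil gene lower and 1 immediate early gene in each direction. Jun had 653, 655 and 942 CPM in MPP4, against 1275, 1386 and 1492 CPM in CMP (adjusted p = 0.171).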

How the data were processed

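The samples are 6 sequencing pools, each of which holds 1 CEL-Seq2 library per sort of 15 cells, and the populations are known from the names of the 12 deposited tables. The deposited tables hold signal: counts per gene that the authors had divided by a size factor of each library, so every value is a whole multiple of the smallest positive one. Dividing by that value gave whole reads within 0.01 for 100% of values in each of the 36 libraries. Reads were aligned with BWA 0.6.2-r126 to mm10, per the submitters' processing notes. Per the labels' protocols the libraries were CEL-Seq2. Which counting program and annotation were used, and whether strand and molecular identifiers entered, was not given in the sources used here. All tables held 23538 genes after removal of 92 spike-in transcripts, with 55 symbols on more than 1 line. The wild-type MEP table lacked the spike-in names, so its row names stood out of line with its values; its rows were named in the row order of the CMP table.

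Counts were scaled to the common total of 58676.5, and log2(value + 1) was fitted with limma 3.58.1 (R 4.3.3) over the 12 wild-type and heterozygous MPP4 and CMP libraries in 4 groups, without covariates, for genes with a mean of at least 1. A pseudocount of 1 equals 17.0 CPM. Adjusted p-values are Benjamini-Hochberg values over all genes tested, called under 0.05. Because the deposited values are not raw counts, edgeR 4.0.16 and DESeq2 1.42.0 on the recovered counts served as alternatives. Pooled ratios have exact 95% binomial intervals, and floors are 3 counts; both cover counting error only, and PCR reads without molecular identifiers are not independent molecules. The fits were tested on simulated data.

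The members and lists were chosen with earlier results of these data known. The genes named are the 15 with the largest called difference in each direction, Vpreb1, Igll1, Mpo, Ctsg, the surface genes of the sort, and the called members of each list (for lists with none, the 2 with most counts). Other genes named as examples were chosen after their values were seen, and 2 called list members are counted but not reported here by name. The alternatives were other scalings, pseudocounts, filters and tests, other sets of libraries, thinning to 18040 counts and leaving out each library. Those without both wild-type MPP4 replicate 3 and CMP replicate 2, and those with totals free of globin and Rn45s, were chosen after seeing the data.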

Additional observations from a re-analysis of the deposited data

Results flagged for a closer look

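For 7 genes the difference between MPP4 and CMP itself differed between the genotypes by edgeR's interaction test on the recovered counts, which tested 1461 genes. The values are the heterozygous minus the wild-type log2 difference, with Benjamini-Hochberg adjusted p. They were 4.98 for Mir682 (adjusted p = 0.0405), 3.38 for Gm10653 (adjusted p = 0.0405) and 3.12 for Trip4 (adjusted p = 0.0405). A630089N07Rik had 3.03 and Rpl37 had 2.42 (adjusted p = 0.0461 for both). Rpl39 had 1.71 and Rps10 had 1.66 (adjusted p = 0.0405 for both). Of the 7, 6 were also called lower in wild-type MPP4 than in CMP, and A630089N07Rik was not (log2 difference −0.85, adjusted p = 0.281 by limma). The limma interaction called none of the 7. Population and sequencing pool cannot be told apart here, and the part of the pool was not tested.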

How the results depend on the processing

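Of the 110 named genes tested, 67 were called, none of these 67 reversed under any alternative, and 15 were called in every one. The count of higher genes was 73, and 47 with a mean of at least 5, 35 with the 6 wild-type libraries only, 12 with all 36 libraries and 33 after thinning to the shallowest library. Leaving out 1 library gave 33 to 137 (137 and 118 without wild-type MPP4 replicates 1 and 3, and 33, 36 and 37 without CMP replicates 1, 2 and 3). The count of lower genes was 103, and 34 with the 6 wild-type libraries only, 13 with all 36, 47 after thinning and 56 without both MPP4 replicate 3 and CMP replicate 2. Leaving out 1 library gave 35 to 250 (250 without MPP4 replicate 1, 35, 37 and 35 without CMP replicates 1, 2 and 3, and 67 and 66 without heterozygous CMP replicates 1 and 3). The heterozygous contrast had 78 calls, and 134 by edgeR, 139 by DESeq2, 17 with all 36 libraries and 172 without both libraries. Leaving out 1 library gave 29 to 201 (201 without wild-type MPP4 replicate 3, 40 without heterozygous MPP4 replicate 2, and 29, 41 and 44 without heterozygous CMP replicates 1, 2 and 3). The interaction had 0 calls by limma, 7 by edgeR, 22 by DESeq2, 2 after thinning, 6 without both libraries and 0 to 14 with 1 library left out (1 and 14 without wild-type MPP4 replicates 1 and 3). Where an arm kept fewer libraries, the spread was pooled over all groups. The cause of these moves was not tested. The genes that turned direction were uncalled. Flt3 (−0.04) had 1.29 by edgeR, 1.15 by DESeq2, 0.26 with a pseudocount of 4, 0.53 after thinning and 1.36 without both libraries, and −1.25 to 1.27 with 1 library left out. Fcer1g (−0.15) had 0.79 by edgeR, 0.78 by DESeq2, 0.20 with a pseudocount of 4, 0.11 after thinning and −0.996 to 1.30 with 1 library left out. Gapdh (−0.16) had 0.089, 0.023 and 0.056 by edgeR, by DESeq2 and after thinning, 0.61 without both libraries and −0.50 to 0.47 with 1 left out. Atp5a1 (−0.27) had 0.23 by edgeR, 0.20 by DESeq2, 0.66 without both libraries and −0.76 to 0.63 with 1 left out. Pkm (0.23) had −0.0024 with TMM scaling. Leaving out 1 library gave −0.64 to 0.15 for Pecam1, −1.37 to 0.030 for Ncl and −0.62 to 0.42 for Ddx3y. No paired analysis was possible because the libraries carry running barcode numbers that no 2 groups share. Genes with under 3 counts in a group could not be told from absent at these depths.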
